A study of Mus musculus with 18 samples.

Results

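The genotype difference common to both white fat depots was measured in 12 of the 18 RNA-seq libraries of the study, with liver left out. Each combination of depot (epididymal white fat, eWAT, and inguinal white fat, iWAT) and genotype held 3 libraries, so that 6 KO libraries were set against 6 WT libraries. The libraries were taken by their labelled tissue, and no measured value was used to choose them. KO mice were Bckdha f/f;RIP-Cre and WT mice were Bckdha f/f, both C57BL/6 and 12 weeks old, so the floxed allele was present in every animal and the Cre transgene only in KO. RIP-Cre usually denotes Cre recombinase driven by the rat insulin promoter, which acts in pancreatic beta cells and in some neurons and not in adipocytes. No library came from animals with RIP-Cre and an intact Bckdha gene, so a difference due to the transgene and a difference due to the deletion cannot be told apart. The sources used here do not give the sex of the animals. Nothing in the labels ties each library of a group to its own animal, nor says whether libraries of equal number in the depots share an animal. The p-values thus reflect the spread of these libraries alone, part of which may be technical.

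Bckdha codes for a catalytic subunit (E1 alpha) of branched-chain ketoacid dehydrogenase, the complex that commits leucine, isoleucine and valine to oxidation in mitochondria. White adipocytes carry out this oxidation, feed part of the carbon into fatty acid synthesis, and store fatty acids as triglyceride. Insulin promotes lipid synthesis and storage in these cells, while growth hormone signals through the kinase JAK2 and the transcription factor STAT5. STAT5 is known to induce Cish, a feedback inhibitor of cytokine receptors, and to repress Bcl6, itself a transcriptional repressor.

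Levels are given as CPM, the usual depth-scaled read count, with library sizes adjusted by TMM factors over the 12 libraries, and each run of 3 values lists replicates 1, 2 and 3 in that order. A log2 fold change is KO minus WT over both depots, from a fit with a term for depot and a term for genotype. The fold change within each depot came from a fit of the 4 groups to the same libraries. Bulk RNA cannot tell fewer cells of a type from less RNA per cell.

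Total expected counts were 16796147 to 24357859 in eWAT and 17959394 to 28039742 in iWAT, and 15874 to 18497 genes had reads. The library labelled eWAT WT replicate 2 went against its labelled tissue. Its 15 mature adipocyte markers summed to 924 CPM, against 10315 to 56510 CPM in the other 11 libraries, and its 10 epididymis markers summed to 71498 CPM. Epididymal markers also summed to 1827 CPM in eWAT KO replicate 1 and 2130 CPM in eWAT KO replicate 3, where smooth muscle markers reached 4133 and 3986 CPM, and to at most 58.6 CPM in the other 9. Every result was therefore fitted with and without eWAT WT replicate 2. In iWAT, B cell markers summed to 1645 to 4079 CPM in 5 libraries and to 166 CPM in WT replicate 2, the library in which skeletal muscle markers summed to 712 CPM. In eWAT WT replicate 3 the mitochondrial genome gave 15.5% of the reads, against 3.23% to 5.97% in the other 11 fat libraries.

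**Figure D1:**
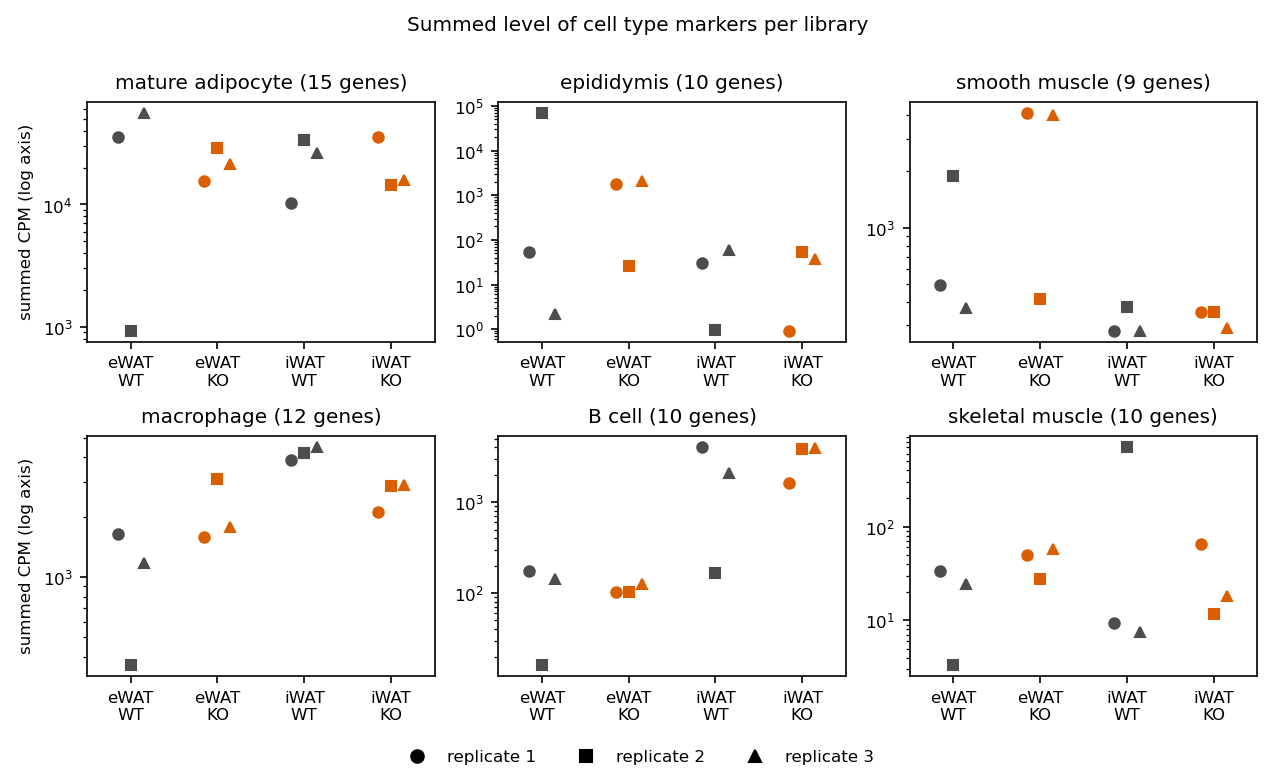
Summed CPM (log axis) of 6 cell type marker lists in each of the 12 fat libraries, by depot and genotype (grey, WT; orange, KO; symbols, replicate numbers). The library labelled eWAT WT replicate 2 stands at 924 CPM for mature adipocyte markers and 71498 CPM for epididymis markers.

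Bckdha was present in every fat library. In eWAT its level was 215, 53.8 and 349 CPM in WT and 111, 149.8 and 159.7 CPM in KO. In iWAT it was 117, 228 and 198 CPM in WT and 255, 115 and 158 CPM in KO. The groups overlapped in both depots, and the log2 fold change was -0.3 ± 0.39 (SE), with an adjusted p of 0.855 by the edgeR quasi-likelihood test with Benjamini-Hochberg adjustment. Its sign turned with the deposited FPKM values, to 0.0711 with log2(FPKM + 1). That value was below the median of all genes on that scale, 0.21 above a minimum mean FPKM of 1. Bckdha lies at chr7:25629946-25658981 on mm10. The cells in which RIP-Cre acts were not profiled, so this level does not check the genotype labels.

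The comparison asked which genes differed between KO and WT in the same direction in both depots. Genes of fatty acid synthesis, pyruvate entry and the respiratory chain mostly stood lower in KO, and genes of the heat shock, immediate early and interferon lists mostly stood higher. The respiratory chain medians were larger in size in eWAT, and the interferon median was higher in iWAT. The genes of lowest p included Fam20c, Mafk, Peg3 and Bcl6, which stood higher in every KO library than in every WT library of the same depot, and Elovl6, Spire1 and Lurap1, which stood lower in every one. None of them passed the threshold, and no gene did: of 15455 genes tested, 0 (0%) had an adjusted p under 0.05, the lowest being 0.159.

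Before adjustment 1039 genes (6.72% of those tested) had a p under 0.05, of which 534 (3.46%) stood higher in KO and 505 (3.27%) lower. Of the 1039, 1035 (6.7% of those tested) had the same sign in each depot. A low p in the shared fit mostly requires a shared sign, so this count does not measure how alike the depots were. Whatever the p, 8019 genes (51.9%) stood higher and 7436 (48.1%) lower in KO in the shared fit. Over all genes tested the depots gave the same sign for 8679 (56.2%), with 4701 (30.4%) higher and 3978 (25.7%) lower in KO in both. Across genes, which are not independent replicates, Spearman's rho between the depots' fold changes was 0.154, with depth shared within each library. In 197 genes (1.27%) all 3 KO libraries lay on the same side of all 3 WT libraries in each depot and in the same direction, 127 (0.822%) higher and 70 (0.453%) lower. This split moved with the scaling, to 104 higher and 90 lower with median-of-ratios factors, 114 and 84 with upper quartile factors, and 376 and 12 with the deposited FPKM values. FPKM also moved the median of all genes from 0.02 to 0.21 on the log2 scale, so 0 is not the centre of all genes on that scale. Within a single depot the groups were apart for 2430 genes (15.7%) in eWAT and 1433 (9.27%) in iWAT. Genes apart in opposite directions numbered 89 (0.576%) with KO higher in eWAT and lower in iWAT, and 12 (0.0776%) the other way round.

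Calls depended on the tool more than on the library left out. DESeq2 called 109 genes (0.763% of 14291 with an adjusted p), 66 higher and 43 lower. All had the same sign in each depot, which a test of a shared effect favours. Limma-voom with sample quality weights, which gives less weight to libraries far from their group, called 1532 (9.91%), and limma-voom without weights called 0. The fit without eWAT WT replicate 2 called 0 of 15784 genes by the edgeR quasi-likelihood test, with a lowest adjusted p of 0.0827 and 1848 genes (11.7%) at an unadjusted p under 0.05, 885 (5.61%) higher and 963 (6.1%) lower. Without that library 376 genes (2.38%) were apart in the same direction in both depots, 234 (1.48%) higher and 142 (0.9%) lower. Fewer libraries make separation easier, and with each of the 12 left out in turn the count ran from 220 to 622.

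**Figure D2:**
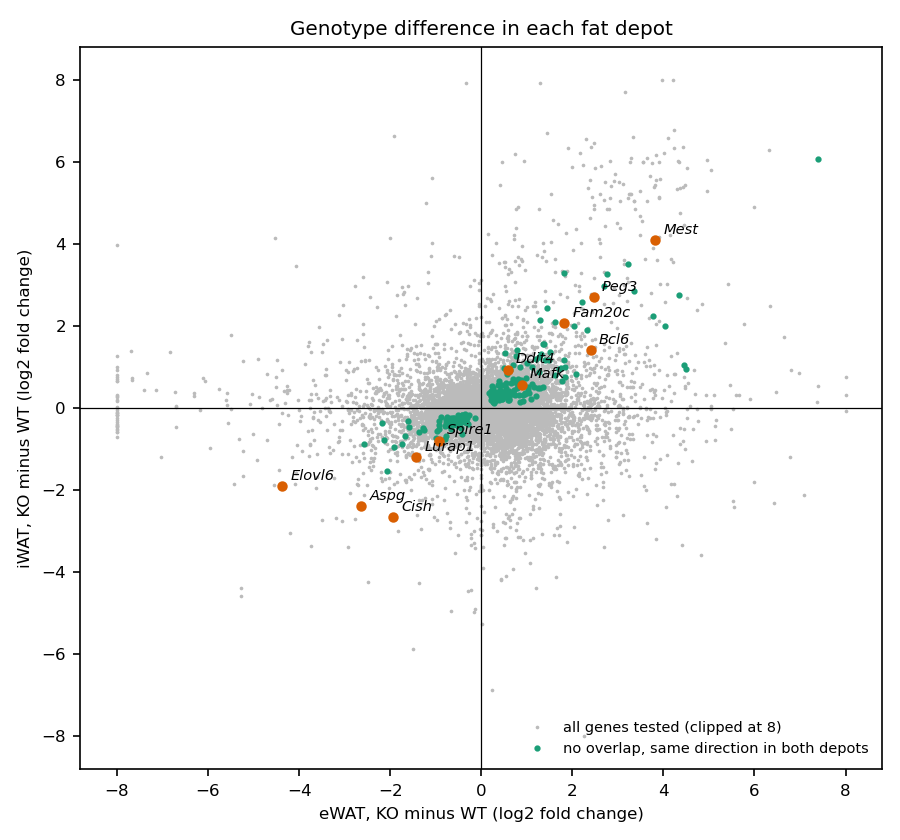
Log2 fold change (KO minus WT) in iWAT against that in eWAT for the 15455 genes tested, values beyond 8 drawn at 8. Green points are the 197 genes whose KO and WT libraries did not overlap in either depot and differed in the same direction, and named genes are in orange.

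Of the genes higher in KO, Fam20c had the lowest p. It encodes the Golgi kinase that phosphorylates secreted proteins and lies at chr5:138754514-138810077. Its level in eWAT was 29.9, 33.7 and 12.9 CPM in WT and 89.1, 90.2 and 90.03 CPM in KO. In iWAT it stood at 22.2, 22.4 and 19.2 CPM in WT and 139, 53.3 and 75.6 CPM in KO. The lowest KO library, iWAT replicate 2, was above the highest of all 6 WT libraries, and the 3 eWAT KO libraries were nearly equal. The log2 fold change was 1.94 ± 0.27 (SE), 1.81 in eWAT and 2.07 in iWAT, with an adjusted p of 0.159. Across the 29 alternatives its adjusted p ran from 1.2e-08 with DESeq2 to 0.607 and its fold change from 1.72 to 2.13.

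Mafk, a small Maf protein that pairs with NRF2 and related factors, had the second lowest p. In eWAT its level was 21.6, 20.2 and 21.7 CPM in WT and 36.001, 44.9 and 36.8 CPM in KO, and in iWAT 23.9, 25.2 and 25.2 CPM in WT and 35.4, 37.02 and 38.1 CPM in KO. All 6 KO libraries lay above all 6 WT libraries and the spread within each group was small, so a log2 fold change of 0.73 ± 0.11 (SE) came with an adjusted p of 0.159. Mafk lies at chr5:139791513-139802653.

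Peg3, an imprinted gene for a zinc finger protein that is expressed from the paternal copy, differed by a larger factor and with a wider spread. It stood at 21.5, 9.71 and 20.1 CPM in WT and 75.4, 131 and 78.02 CPM in KO in eWAT. The iWAT values were 3.504, 16.6 and 9.24 CPM in WT and 96.5, 62.8 and 31.9 CPM in KO. KO and WT libraries did not overlap even when the depots were pooled. It differed by 2.58 ± 0.4 (SE) on the log2 scale, with an adjusted p of 0.159 (chr7:6703892-6730431).

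Slc25a25, a carrier of ATP-Mg and phosphate across the inner mitochondrial membrane, stood at 45.4, 21.7 and 28.5 CPM in WT and 55.8, 91.2 and 72.3 CPM in KO in eWAT and 23.1, 30.998 and 19.3 CPM in WT and 67.8, 42.1 and 58.7 CPM in KO in iWAT. Its groups did not overlap within a depot but did across depots, since eWAT WT replicate 1 lay above iWAT KO replicate 2. Its log2 fold change of 1.2 ± 0.22 (SE) was the same in both depots to the second decimal (chr2:32414487-32451445).

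Bcl6 and Cish, a pair that STAT5 is known to regulate in opposite directions, stood in opposite directions here. A part of STAT5 in this was not tested, and no list of STAT5 targets was examined. Bcl6 was at 18.4, 9.95 and 21.3 CPM in WT and 68.3, 107 and 86.1 CPM in KO in eWAT and at 60.4, 17.4 and 25.2 CPM in WT and 110.3, 81.3 and 81.4 CPM in KO in iWAT. The groups did not overlap, and iWAT WT replicate 1 was the WT library nearest to KO. Over both depots the log2 fold change was 1.9 ± 0.35 (SE) with an adjusted p of 0.218 (chr16:23965052-23988852). Without iWAT WT replicate 1, Bcl6 was the 1 gene that passed the threshold. Cish stood at 53.9, 8.62 and 70.4 CPM in WT and 14.2, 5.704 and 14.7 CPM in KO in eWAT and at 24.01, 63.9 and 55.8 CPM in WT and 6.77, 7.88 and 8.197 CPM in KO in iWAT. The library labelled eWAT WT replicate 2 was within the range of the eWAT KO libraries, and the other 5 WT libraries lay above all 6 KO libraries. With 12 libraries the log2 fold change was -2.3 ± 0.48 (SE) (adjusted p = 0.318), and -2.56 ± 0.3 (SE) without that library, where Cish had the lowest p of all genes and an adjusted p of 0.0827 (chr9:107296026-107302784).

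The promoters of this pair are shown because both held the STAT motif TTCNNNGAA, which was searched on both strands in RefSeq promoters of GRCm38.p6, taken from 250 bases before to 50 after each annotated start. Matches are in capitals, and the windows follow the order Cish at chr9:107296409-107296708 (plus strand), the Bcl6 start at chr16:23988803-23989102 (minus strand) and a second Bcl6 start at chr16:23981234-23981533 (minus strand).
Cish: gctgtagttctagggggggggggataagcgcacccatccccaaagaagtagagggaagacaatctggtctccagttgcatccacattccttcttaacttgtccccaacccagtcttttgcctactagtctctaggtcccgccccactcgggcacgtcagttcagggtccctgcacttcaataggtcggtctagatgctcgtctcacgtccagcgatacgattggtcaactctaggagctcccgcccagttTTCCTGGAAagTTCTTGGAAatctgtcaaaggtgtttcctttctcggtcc
Bcl6, first start: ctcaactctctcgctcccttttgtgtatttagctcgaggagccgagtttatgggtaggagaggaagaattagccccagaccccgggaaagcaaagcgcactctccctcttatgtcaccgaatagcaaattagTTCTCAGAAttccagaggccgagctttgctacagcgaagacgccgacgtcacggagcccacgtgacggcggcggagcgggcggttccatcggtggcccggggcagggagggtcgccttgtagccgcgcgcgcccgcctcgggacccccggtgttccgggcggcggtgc
Bcl6, second start: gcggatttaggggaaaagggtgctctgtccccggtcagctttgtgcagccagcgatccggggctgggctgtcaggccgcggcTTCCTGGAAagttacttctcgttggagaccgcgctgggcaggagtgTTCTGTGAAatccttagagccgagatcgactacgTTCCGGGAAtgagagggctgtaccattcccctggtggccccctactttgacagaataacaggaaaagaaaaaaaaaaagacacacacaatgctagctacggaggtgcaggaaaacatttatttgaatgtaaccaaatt
The Cish window held 2 matches, at and just after the start. The Bcl6 windows held 1 match 118 bases before the first start and 3 matches 168, 122 and 88 bases before the second. The motif was present in 2726 of 32851 promoters (8.3%) and in 3 of the 21 windows of the 16 named genes that the table holds, all of them those printed. The short heat shock motif TTCNNGAA was in 8.52% of promoters, among them windows of Slc25a25 and Serpina3b. The long heat shock motif (the short one preceded by GAA and 2 further bases), the sterol motif TCACNCCAC and the PPAR motif (AGGTCA repeated after 1 base) were in 0.603%, 1.24% and 0.0396% of promoters and in 0 of the 21 windows. The heat shock motifs share letters with each other, and a match describes the sequence and not binding.

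**Figure D3:**
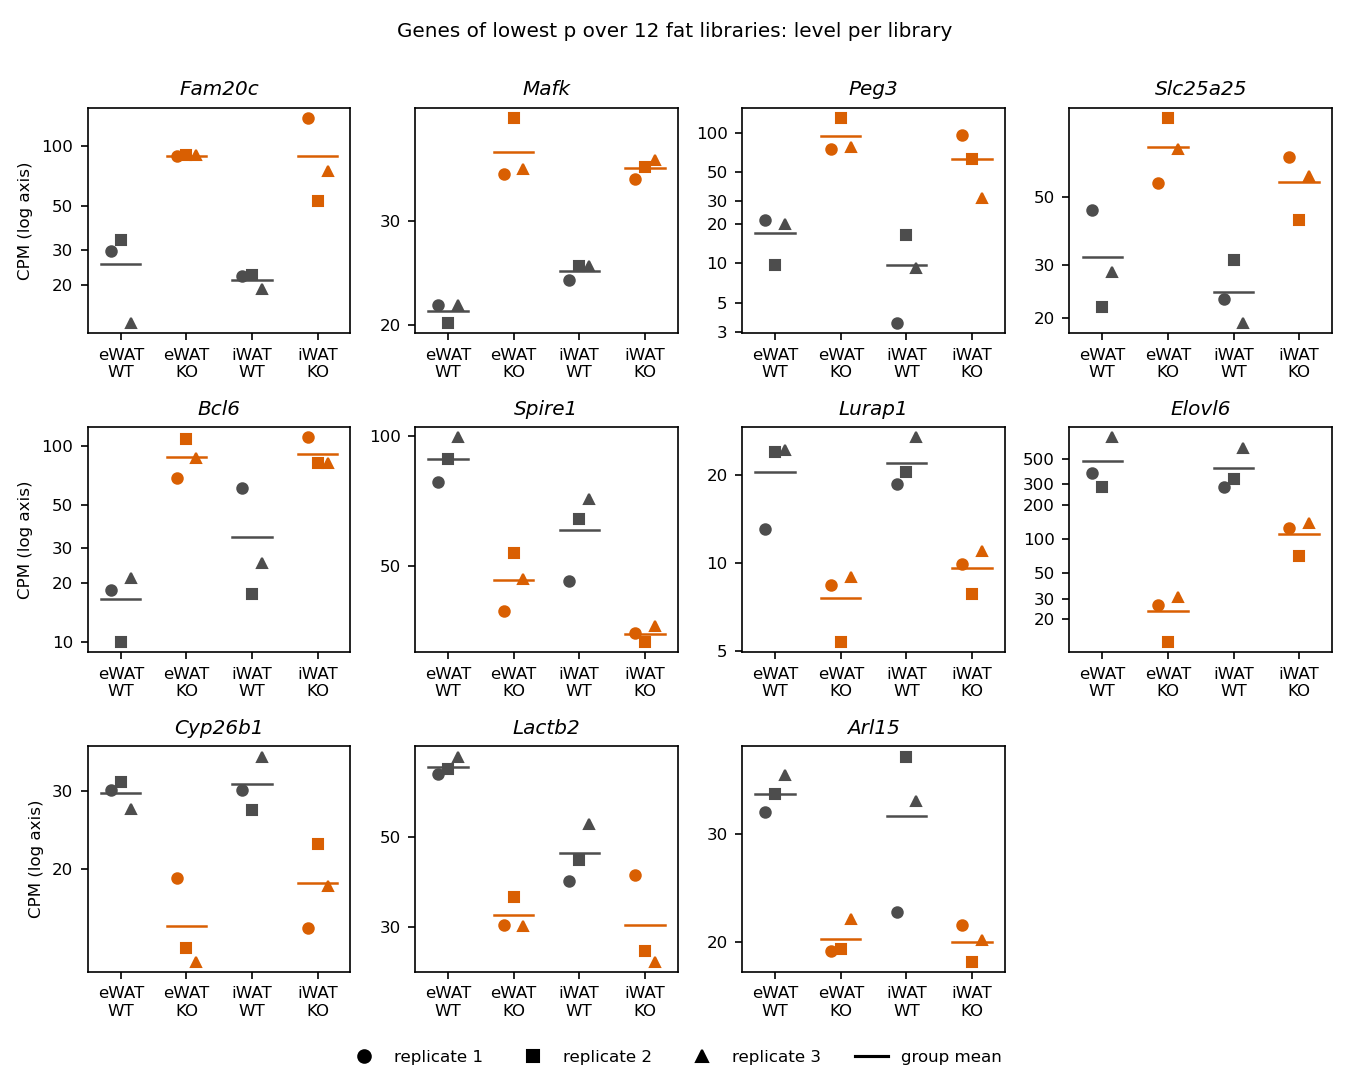
CPM (log axis) of 11 of the 12 genes of lowest p over 12 fat libraries, 5 higher and 6 lower in KO, by depot and genotype; symbols are replicate numbers and bars are group means (n = 3). KO and WT libraries were apart within each depot in all panels except Lactb2, whose iWAT libraries overlapped.

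Of the genes lower in KO, Elovl6 differed by the largest factor among the 6 of lowest p. It elongates the saturated fatty acids that fatty acid synthase makes. Its eWAT levels were 376, 287 and 778 CPM in WT and 26.5, 12.4 and 30.9 CPM in KO. Its iWAT levels were 287, 336 and 628 CPM in WT and 126, 70.8 and 137 CPM in KO. Every KO library lay below every WT library, and the eWAT KO libraries were the lowest of all. The log2 fold change was -3.13 ± 0.56 (SE), -4.37 in eWAT and -1.91 in iWAT, with an adjusted p of 0.218 (chr3:129532355-129638495). The difference between depots, 2.46 ± 0.7 (SE), had an unadjusted p of 0.00539 and did not pass after adjustment (edgeR adjusted p = 0.969).

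Spire1, an actin nucleator, had the lowest p among genes lower in KO. It stood at 78.4, 88.5 and 99.4 CPM in WT and 39.4, 53.7 and 46.8 CPM in KO in eWAT and 46.4, 64.3 and 71.7 CPM in WT and 35.05, 33.4 and 36.4 CPM in KO in iWAT. The depots differed in level, so that iWAT WT replicate 1 lay below some eWAT KO libraries, and within each depot the groups were apart. The log2 fold change was -0.86 ± 0.13 (SE) (adjusted p = 0.159; chr18:67488209-67610790). Lurap1, an adaptor protein, stood at 13.1, 24.03 and 24.5 CPM in WT and 8.42, 5.37 and 8.97 CPM in KO in eWAT and 18.7, 20.5 and 27.03 CPM in WT and 9.99, 7.83 and 11.02 CPM in KO in iWAT. All 6 KO libraries lay below all 6 WT libraries, and the log2 fold change was -1.32 ± 0.21 (SE) (adjusted p = 0.164; chr4:116132406-116151338).

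Cyp26b1, which breaks down retinoic acid, was at 30.2, 31.3 and 27.4 CPM in WT and 19.2, 13.3 and 12.4 CPM in KO in eWAT and 30.1, 27.1 and 35.8 CPM in WT and 14.8, 22.8 and 18.3 CPM in KO in iWAT. KO was below WT in every library, by -0.86 ± 0.16 (SE) on the log2 scale (chr6:84571414-84593908). Arl15, a small GTPase of the ARF-like family, was at 32.5, 34.8 and 37.3 CPM in WT and 19.4, 19.5 and 21.8 CPM in KO in eWAT and 22.4, 40.02 and 33.8 CPM in WT and 21.3, 18.6 and 20.2 CPM in KO in iWAT. The groups were apart, with iWAT WT replicate 1 only just above the KO range, and the log2 fold change was -0.73 ± 0.14 (SE) (chr13:113794505-114157461). Lactb2, a mitochondrial ribonuclease, was at 71.3, 73.4 and 78.8 CPM in WT and 30.4, 35.7 and 30.3 CPM in KO in eWAT and 39.003, 43.99 and 53.8 CPM in WT and 40.4, 26.3 and 24.7 CPM in KO in iWAT. Its eWAT groups were far apart, while iWAT KO replicate 1 lay within the iWAT WT range, and the log2 fold change was -0.9 ± 0.17 (SE) (chr1:13623330-13660546). The adjusted p of all 3 genes was 0.218.

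A further set of genes was named from the order of p without eWAT WT replicate 2, and these too missed the threshold. Ddit4 encodes REDD1, an inhibitor of the growth kinase complex mTORC1. Its eWAT levels were 22.7, 57.6 and 29.8 CPM in WT and 55.1, 47.2 and 62.01 CPM in KO, and its iWAT levels were 24.5, 31.6 and 31.98 CPM in WT and 52.97, 55.05 and 60.6 CPM in KO. The library labelled eWAT WT replicate 2 lay within the KO range, and the other 5 WT libraries lay below all 6 KO libraries. The log2 fold change was 0.76 ± 0.21 (SE) with 12 libraries (adjusted p = 0.6198) and 0.99 ± 0.13 (SE) with 11 (adjusted p = 0.0827; chr10:59949669-59951834).

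Trafd1, an interferon-inducible regulator of innate signalling, stood at 67.6, 26.6 and 64.1 CPM in WT and 94.8, 116 and 110.04 CPM in KO in eWAT and 75.2, 78.8 and 71.4 CPM in WT and 108, 106 and 107 CPM in KO in iWAT. The KO libraries of both depots were close to each other and above every WT library. Its fold change was 0.6 ± 0.1 (SE) on the log2 scale with 11 libraries (adjusted p = 0.159; chr5:121371725-121385632). Dnajb1, a co-chaperone of HSP70, stood at 49.8, 66.6 and 43.2 CPM in WT and 86.5, 103 and 70.1 CPM in KO in eWAT and 60.9, 59.2 and 51.4 CPM in WT and 138, 92.8 and 127 CPM in KO in iWAT. No KO library was at or below any WT library, and the log2 fold change was 0.99 ± 0.14 (SE) with 11 libraries (adjusted p = 0.138; chr8:83608193-83612653). With 12 libraries it was 0.88 ± 0.16 (SE) (edgeR adjusted p = 0.218), so Dnajb1 did not depend on leaving out that library.

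Among genes lower in KO, Aspg, an asparaginase, was at 2.64, 1.58 and 14.4 CPM in WT and 0.828, 1.15 and 1.01 CPM in KO in eWAT and 20.97, 13.7 and 40.2 CPM in WT and 5.12, 3.09 and 6.06 CPM in KO in iWAT. Its groups were apart within each depot, at levels that differed several-fold between depots (log2 fold change with 11 libraries -2.69 ± 0.45 (SE), adjusted p = 0.159; chr12:112106679-112127559). Serpina3b belongs to a family of near-identical protease inhibitor genes whose reads may be split, and its values are uncertain for that reason. It was at 36.1, 0.121 and 62.5 CPM in WT and 1.14, 1.32 and 2.08 CPM in KO in eWAT and at 0.0483 to 0.455 CPM in every iWAT library, so its shared difference rested on eWAT (chr12:104127996-104139545).

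**Figure D4:**
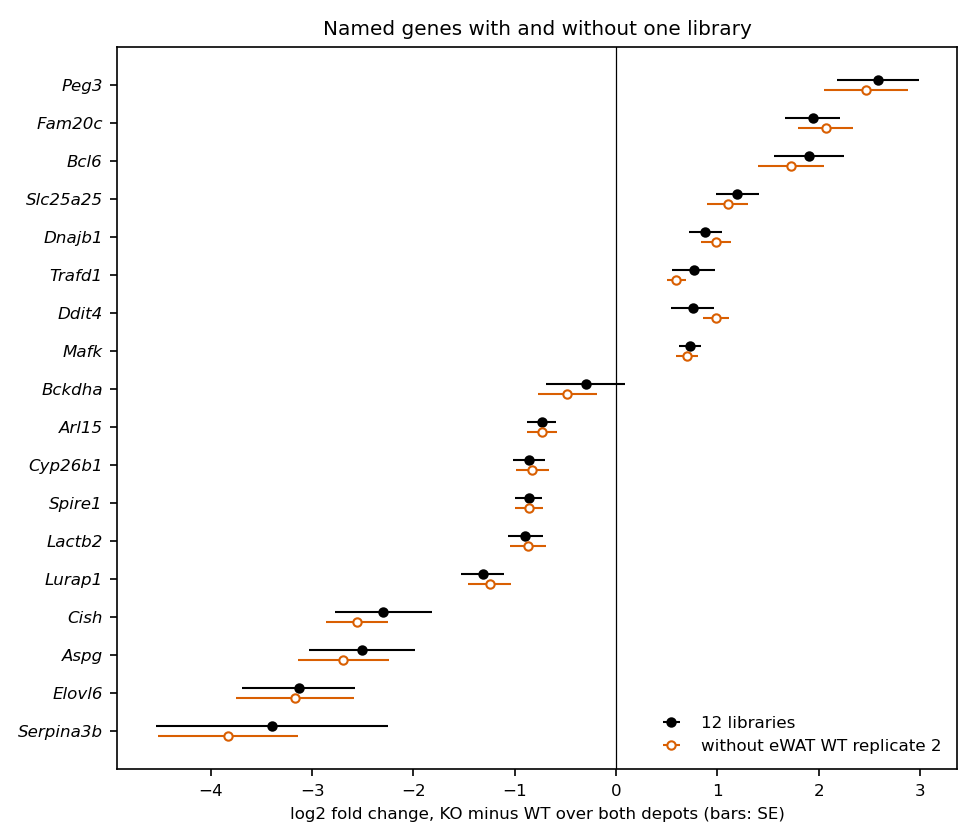
Log2 fold change (KO minus WT over both depots) with its SE for 18 genes, with 12 libraries (filled) and without eWAT WT replicate 2 (open). All 18 kept their direction, and none passed an adjusted p of 0.05 in either fit.

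Gene lists were described by counts and medians, beside a median of 0.02 over all genes tested with 12 libraries. Without eWAT WT replicate 2 the median of all genes was 0.0786 in the shared fit and 0.196 in eWAT. Of all genes tested with 12 libraries, 48.1% stood lower and 51.9% higher in KO. In both depots 25.7% stood lower and 30.4% higher. At an unadjusted p under 0.05 stood 3.27% lower and 3.46% higher, and without eWAT WT replicate 2 the shares were 6.1% and 5.61%. With a library left out, the number of all genes at an unadjusted p under 0.05 ran from 697 of 15577 to 1848 of 15784. Member counts at that p with a library left out therefore moved together with this background. Among 20 genes of de novo lipogenesis, the route from acetyl-CoA to long-chain fatty acids, 19 stood lower in KO, 17 of them in both depots, and 11 had an unadjusted p under 0.05, all lower. The median log2 fold change was -1.36, with -1.89 in eWAT and -0.82 in iWAT. Acly, which supplies cytosolic acetyl-CoA, was at 5234, 1779 and 6799 CPM in WT and 515, 473 and 934 CPM in KO in eWAT and at 2683, 6359 and 6759.8 CPM in WT and 2784, 1209 and 2396 CPM in KO in iWAT. The eWAT groups were apart, and in iWAT KO replicate 1 overlapped WT replicate 1 (log2 fold change -2.08 ± 0.48 (SE), edgeR adjusted p = 0.447).

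Scd2, a fatty acid desaturase, was at 1432, 2096 and 1109.8 CPM in WT and 521, 269 and 607 CPM in KO in eWAT and 878, 1619 and 1248 CPM in WT and 610.4, 563 and 872 CPM in KO in iWAT. It was apart in both depots, in iWAT only just (878 against 872 CPM), with a log2 fold change of -1.3 ± 0.3 (SE). Fasn (-1.65), Me1 (-1.97), Acss2 (-1.44) and the regulators Srebf1 (-1.19) and Mlxipl (-1.56) had fold changes of the same sign in both depots with overlapping libraries. Fads1 stood at 0.04 and was the 1 member with a positive value. With libraries left out in turn, the median of de novo lipogenesis ran from -1.6 without eWAT WT replicate 2 to -1.08 without eWAT WT replicate 3, and the number of members at an unadjusted p under 0.05 was 16 and 4. That number was 5 without each eWAT KO library, 6 without iWAT WT replicate 3 or iWAT KO replicate 2, and 7 without iWAT WT replicate 2. The median was -0.98 with limma-voom, where 3 members had such a p, and -0.74 to -0.69 with the deposited FPKM values, where 4 had.

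Genes of cholesterol synthesis had medians of opposite sign in the depots. Of 25 members 21 stood lower in KO in eWAT and 6 in iWAT, with medians of -0.94 and 0.1, and the median over both was -0.41. The shared median of cholesterol synthesis was -0.25 without eWAT WT replicate 2, -0.13 without the 3 eWAT libraries rich in epididymal transcripts, and -0.18 to -0.16 with FPKM. Lss, which closes the sterol ring, was at 48.2, 61.2 and 43.1 CPM in WT and 18.4, 16.4 and 21.03 CPM in KO in eWAT and 22.9, 27.1 and 36.2 CPM in WT and 28.4, 15.8 and 24.3 CPM in KO in iWAT. The eWAT groups were apart and the iWAT groups overlapped. Cyp51, a later demethylase of the pathway, had a log2 fold change of -1.75 in eWAT and 0.0 in iWAT, and the difference of 1.75 ± 0.39 (SE) had an unadjusted p of 0.00111 and an adjusted p of 0.969 by the edgeR quasi-likelihood test. Nsdhl and Acat2 gave differences between depots of 1.72 ± 0.53 and 1.45 ± 0.53.

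Transcripts for mitochondrial energy metabolism stood lower in KO in nearly every member. All 47 nuclear genes of oxidative phosphorylation were lower in the shared fit, 43 of them in both depots. Their median was -0.49, and 8 had an unadjusted p under 0.05. Of all genes tested, 25.7% were lower in both depots and 3.27% were lower at that p. All 13 protein genes of the mitochondrial genome were lower in both depots, with a median of -0.91 and 3 at that p. Of 25 genes of the TCA cycle and pyruvate entry 23 were lower in both depots, with a median of -0.6 and 9 at that p. The medians of these lists, in the order given, were -0.81, -1.51 and -0.85 in eWAT and -0.18, -0.4 and -0.37 in iWAT. In iWAT the summed nuclear list was highest in KO replicate 1 (12056 CPM), against 7767 to 10982 CPM in WT. The other iWAT KO libraries stood at 6290 and 7406 CPM, below every iWAT WT library.

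The library eWAT WT replicate 3, which had the highest mitochondrial share of reads and the highest sum of adipocyte markers, moved with the medians over both depots. Without it they were -0.26, -0.37 and -0.38 for the nuclear, mitochondrial genome and TCA lists, and without eWAT WT replicate 2 they were -0.62, -1.05 and -0.76. Without eWAT WT replicate 2 all 47 members of the nuclear list and all 13 of the mitochondrial genome list had a negative value, and 30 and 13 had an unadjusted p under 0.05. Without eWAT WT replicate 3 the numbers with a negative value were 46, all but Ndufa2, and 13, of which 4 and 2 had such a p. Over all libraries left out in turn, the numbers with such a p ran from 3 to 32 in the list oxidative phosphorylation (nuclear) and from 0 to 13 in the mitochondrial genome, and those of the list TCA cycle and pyruvate entry from 6 to 20. The 3 came without eWAT KO replicate 1, the 0 without eWAT KO replicate 1 or 3, and the 32 without iWAT KO replicate 1. Over all genes, 697 of 15577 had such a p without eWAT KO replicate 1 and 1639 of 15882 without iWAT KO replicate 1. With FPKM the 3 medians were -0.22, -0.51 and -0.32. The 15 mature adipocyte markers had a shared median of 0.16 with 12 libraries, 9 of them higher in KO. Without eWAT WT replicate 2 it was -0.11, with 9 lower. Their eWAT median was 0.15 and, without that library, -0.43. Whether adipocyte content had a part in the values of these lists was not tested. Cycs, the electron carrier cytochrome c, was at 181, 96.8 and 392 CPM in WT and 69.3, 107 and 85.5 CPM in KO in eWAT and 179, 237 and 249 CPM in WT and 193, 99.7 and 94.4 CPM in KO in iWAT. Its libraries overlapped in both depots (log2 fold change -1.07 ± 0.33 (SE)).

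Pdk1, the kinase that inhibits pyruvate dehydrogenase, had the lowest p of the TCA list and was at 157, 156 and 215 CPM in WT and 58.5, 68.4 and 67.1 CPM in KO in eWAT and 94.1, 113 and 153 CPM in WT and 99.8, 89.2 and 89.9 CPM in KO in iWAT. The eWAT groups were apart and the iWAT groups overlapped narrowly, at KO replicate 1 (log2 fold change -0.91 ± 0.22 (SE)). Mdh1, the cytosolic malate dehydrogenase, came next, with -1.19. Pdha1, Pdhb and Dlat, subunits of the pyruvate dehydrogenase complex, had log2 fold changes of -1.25, -1.55 and -1.3. The mitochondrial pyruvate carrier subunits Mpc1 and Mpc2 had -1.47 and -1.17. Pdk4 stood the other way, at 0.6, with an unadjusted p of 0.241.

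Of 26 tested genes of branched-chain amino acid breakdown, 22 stood lower in KO, 18 of them in both depots, with a median of -0.35 and 0 at an unadjusted p under 0.05. By depot the median was -0.66 in eWAT and -0.11 in iWAT. For branched-chain amino acid breakdown the shared median was -0.51 without eWAT WT replicate 2, with 7 members lower at that p. It was -0.59 without iWAT KO replicate 1 (10 members), -0.2 without eWAT WT replicate 3 (0 members) and -0.09 with FPKM, and without iWAT WT replicate 1 the number of members was 4. Bcat2, the mitochondrial aminotransferase of the first step, was at -0.98 on the log2 scale, and Bckdhb and Dbt, which encode the E1 beta and E2 subunits of the ketoacid dehydrogenase complex, were at -0.48 and -0.49. Dld, the E3 subunit that this complex shares with pyruvate dehydrogenase, stood in the TCA list at -0.95, with an unadjusted p of 0.0374. Bckdk, the kinase that inhibits the complex, was at -0.3, and Ppm1k, the phosphatase that activates it, at 0.27. Fatty acid oxidation gave 18 of 24 members lower with a median of -0.42, which was -0.14 without eWAT WT replicate 3 and -0.06 with FPKM. The eWAT and iWAT medians of the list were -0.66 and -0.17. Ehhadh of the peroxisomal pathway (-1.15 ± 0.38 (SE)) and Hadha of the mitochondrial one (-0.53 ± 0.24 (SE)) were its members at an unadjusted p under 0.05. Without eWAT WT replicate 2 the fatty acid oxidation list had 10 members lower and 1 higher at that p, and a median of -0.59. Without iWAT KO replicate 1 it had 4 lower, and 1 in most of the other fits that left out a library.

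Triglyceride storage and lipolysis had no common direction, with 11 of 24 members higher and a median of -0.09 that changed sign between settings. Plin4, a lipid droplet protein, was at 1646, 43.6 and 1068 CPM in WT and 2259, 4246 and 2846 CPM in KO in eWAT and 265, 1063 and 472 CPM in WT and 2045, 881 and 1114 CPM in KO in iWAT. Pck1, which makes glycerol for re-esterification, was at 279.9, 8.68 and 151 CPM in WT and 684, 2511 and 643 CPM in KO in eWAT and 88.8, 487 and 126 CPM in WT and 966, 409 and 386 CPM in KO in iWAT. In both genes eWAT WT replicate 2 was by far the lowest library, the eWAT groups were apart and the iWAT groups overlapped. Their log2 fold changes were 1.46 ± 0.66 (SE) and 2.23 ± 0.82 (SE), and 1.18 and 1.86 without that library.

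The adipokine list was mixed, with 6 of 14 members higher. Lep, the gene for leptin, was at 713, 8.19 and 273 CPM in WT and 935, 1241 and 1366 CPM in KO in eWAT and 84.3, 387 and 99.1 CPM in WT and 967, 334 and 553 CPM in KO in iWAT. KO replicate 1 was the highest iWAT library and the iWAT groups overlapped, while the eWAT groups were apart (log2 fold change 1.77 ± 0.75 (SE), and 1.5 without eWAT WT replicate 2). Of 25 insulin signalling genes 15 stood higher, with a median of 0.1. Irs2, an adaptor of the insulin receptor, was at 37.5, 45.5 and 13.7 CPM in WT and 57.2, 76.3 and 72.2 CPM in KO in eWAT and 34.6, 42.4 and 32.3 CPM in WT and 43.6, 38.4 and 54.2 CPM in KO in iWAT, apart in eWAT and overlapping in iWAT (0.7 ± 0.27 (SE)). Of 18 glycolysis genes 14 stood lower, with a median of -0.32, and Hk1 stood higher (0.86 ± 0.35 (SE)). Of 17 thermogenic genes 12 stood lower, with a median of -0.6 that was 0.04 with log2(FPKM + 0.1), where the median of all genes was 0.26. Elovl3, a fatty acid elongase of that list, was at 1.22, 0 and 12.4 CPM in WT and 0.173, 0.0548 and 0.0534 CPM in KO in eWAT and 14.2, 4.69 and 23.7 CPM in WT and 4.61, 3.29 and 3.81 CPM in KO in iWAT. Its iWAT groups were only just apart (4.69 against 4.61 CPM) and its eWAT groups overlapped at low levels.

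Of 18 heat shock genes 12 stood higher in KO, where 51.9% of all genes tested did. At an unadjusted p under 0.05 were 6, all higher, against 3.46% of all genes. The medians of the list were 0.29 in eWAT and 0.33 in iWAT. With libraries left out in turn, the number of heat shock proteins higher at that p ran from 3 (without eWAT KO replicate 3, iWAT WT replicate 3 or iWAT KO replicate 1) to 9 (without iWAT WT replicate 2). Beside Dnajb1, the co-chaperone Bag3 (0.6 ± 0.24 (SE)), the heat shock factor Hsf1 (0.26) and the small heat shock protein Cryab (0.83) were among the 6. Hspa1a and Hspa1b are near-identical copies of an inducible HSP70 gene whose reads cannot be assigned with certainty, and stood at 1.46 ± 0.5 (SE) and 1.1 ± 0.41 (SE). The constitutive Hspa8 was at -0.2 and Hspa5 of the endoplasmic reticulum at -0.57.

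Of 20 immediate early genes, which respond to stimulation within minutes, 18 stood higher, 15 of them in both depots, with a median of 0.52. Among all genes tested 51.9% stood higher, and 30.4% did so in both depots. Zfp36, which destabilises cytokine messages, was at 41.8, 23.6 and 34.7 CPM in WT and 62.4, 105 and 61.9 CPM in KO in eWAT and 92.5, 46.9 and 69.1 CPM in WT and 89.1, 113 and 113 CPM in KO in iWAT. Its groups were apart in eWAT and overlapped in iWAT (log2 fold change 0.9 ± 0.23 (SE)). Klf2, a transcription factor, was at 23.4, 5.46 and 20.7 CPM in WT and 31.2, 43.4 and 45.2 CPM in KO in eWAT and 72.9, 46.7 and 61.4 CPM in WT and 98.2, 115 and 117 CPM in KO in iWAT. It was apart in both depots, with a log2 fold change of 1.07 ± 0.3 (SE) and, without eWAT WT replicate 2, 0.86 ± 0.15 (SE).

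Of 18 interferon response genes 17 stood higher, 11 of them in both depots, where 30.4% of all genes tested did. At an unadjusted p under 0.05 were 6, all higher, against 3.46% of all genes. For the interferon response the number at that p ran from 5 to 11 with libraries left out in turn, the highest without eWAT WT replicate 3. The list rested more on iWAT, where 17 stood higher with a median of 0.68. In eWAT 11 did, with a median of 0.21. Without eWAT WT replicate 2 the eWAT median of the list was 0.06, below the 0.196 of all genes tested. Irf7, a transcription factor of the response, was at 35.5, 29.7 and 26.4 CPM in WT and 36.97, 50.7 and 44.1 CPM in KO in eWAT and 50.4, 56.2 and 71.4 CPM in WT and 81.3, 195 and 173 CPM in KO in iWAT. It was apart in both depots, and iWAT KO replicates 2 and 3 were the highest libraries (log2 fold change 0.93 ± 0.24 (SE)). Oasl2 was at 30.2, 15.4 and 20.3 CPM in WT and 45.6, 46.9 and 45.1 CPM in KO in eWAT and 24.5, 51.3 and 31.1 CPM in WT and 45.3, 60.8 and 54.2 CPM in KO in iWAT, apart in eWAT and overlapping in iWAT (0.82 ± 0.22 (SE)). T cell markers, summed, were 17.8 to 737 CPM in iWAT WT and 319 to 1073 CPM in iWAT KO, with the highest values in KO replicates 2 and 3, and all 10 had a positive fold change. Their part in the interferon values was not tested.

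Inflammatory mediators had the highest median of any pathway list, 1.0, and it rested on eWAT (2.15), the iWAT median being near 0. Without eWAT KO replicate 2 the median was 0.31. Ccl2, a monocyte chemokine, was at 1.32, 0.303 and 1.197 CPM in WT and 1.97, 84.7 and 1.07 CPM in KO in eWAT and 5.82, 1.902 and 3.33 CPM in WT and 2.05, 6.28 and 5.43 CPM in KO in iWAT. The high eWAT value was in KO replicate 2 alone, the library with the highest macrophage marker sum in eWAT (3100 CPM, against 363 to 1775 CPM). Cell division genes had medians of opposite sign in the depots, 1.18 in eWAT, where 18 of 19 members stood higher, and -0.21 in iWAT, where 14 stood lower. Higher in both were 4 members. The median over both was 0.53, and 0 members had an unadjusted p under 0.05. It was 0.14 without eWAT KO replicate 1 and 1.27 without iWAT WT replicate 1, where 6 members of the cell division list had such a p.

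**Figure D5:**
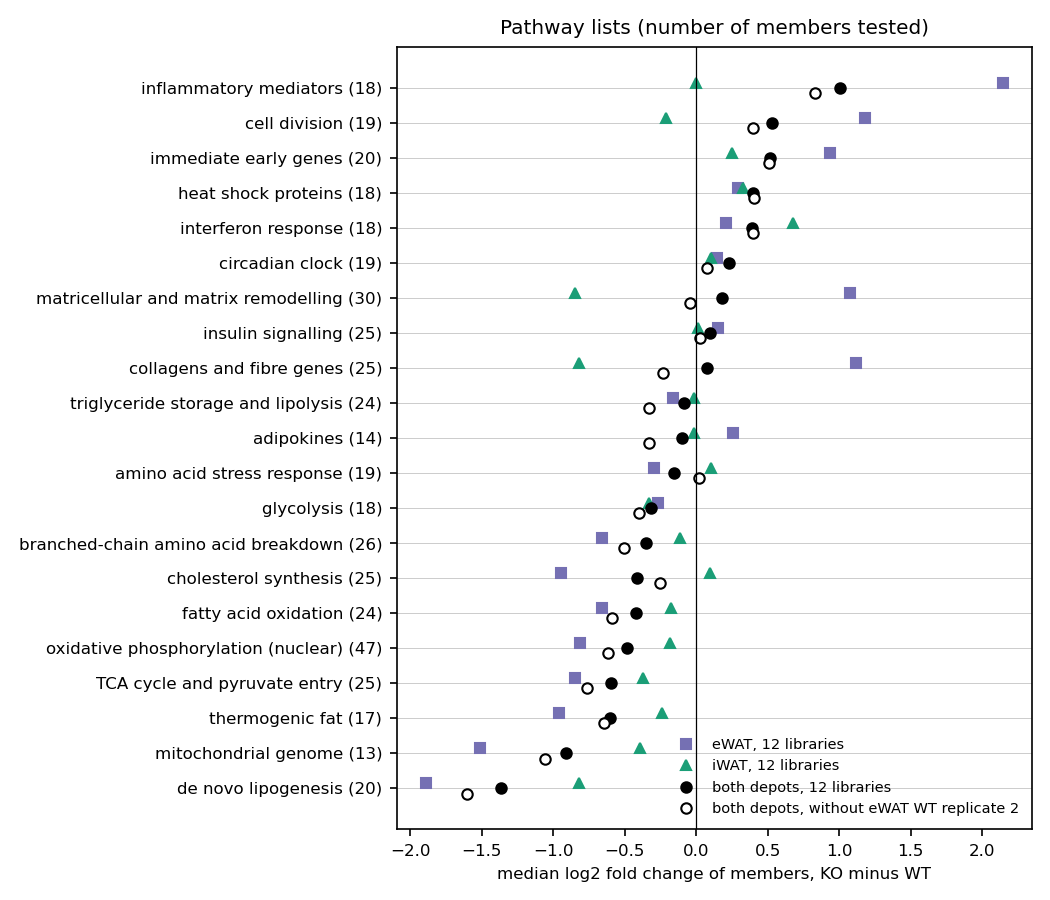
Median log2 fold change (KO minus WT) of 21 pathway lists, with the number of members tested, in eWAT (squares), iWAT (triangles) and both depots (filled circles), and over both without eWAT WT replicate 2 (open circles). De novo lipogenesis stands lowest at -1.36, and collagen and matrix lists stand on opposite sides of 0 in the depots.

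Matrix genes stood in opposite directions in the depots, so that their shared median was near 0. Of 25 collagen and fibre genes 23 stood higher in KO in eWAT and 24 lower in iWAT, with medians of 1.12 and -0.82. Of 30 matricellular and matrix remodelling genes 29 stood higher in eWAT and 24 lower in iWAT. Col4a1, a basement membrane collagen, was at 829.9, 91.7 and 519 CPM in WT and 845, 1678 and 1034 CPM in KO in eWAT and 466, 1242 and 699 CPM in WT and 989, 568 and 792 CPM in KO in iWAT. The lowest eWAT library was WT replicate 2, the eWAT groups were apart, and the iWAT groups overlapped. Macrophage markers also stood higher in all 12 members in eWAT and lower in 11 of 12 in iWAT.

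Ccn1 and Adamts1 were the matrix genes at an unadjusted p under 0.05, both higher in each depot. Ccn1, a matricellular protein, was at 15.1, 7.95 and 3.42 CPM in WT and 40.5, 35.5 and 18.7 CPM in KO in eWAT and 7.99, 4.53 and 5.203 CPM in WT and 15.95, 10.1 and 9.14 CPM in KO in iWAT. Its groups were apart in both depots (log2 fold change 1.42 ± 0.37 (SE)). Adamts1, a secreted protease, was at 56.4, 19.5 and 25.8 CPM in WT and 134, 178 and 99.05 CPM in KO in eWAT and 17.4, 54.1 and 30.1 CPM in WT and 94.9, 41.4 and 54.6 CPM in KO in iWAT, apart in eWAT only (1.46 ± 0.39 (SE)).

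Clock genes were found on both sides. Bhlhe40, a repressor of the clock, was at 167, 131 and 262 CPM in WT and 82.4, 127 and 97.6 CPM in KO in eWAT and 112, 246 and 213 CPM in WT and 128, 82.2 and 129.6 CPM in KO in iWAT, apart in eWAT and overlapping in iWAT (-0.81 ± 0.24 (SE)). Nr1d1, which encodes the repressor REV-ERB alpha, stood higher (0.86 ± 0.28 (SE)) and its target Arntl lower (-0.43 ± 0.17 (SE)). Dbp, an output gene, stood higher (0.59 ± 0.25 (SE)). The sources used here do not give the hour of tissue collection. Of 19 amino acid stress genes 8 stood higher and 11 lower. Psph, the last enzyme of serine synthesis, was at 33.5, 17.3 and 56.7 CPM in WT and 15.3, 11.7 and 14.9 CPM in KO in eWAT and 20.8, 31.8 and 26.6 CPM in WT and 20.7, 13.6 and 18.3 CPM in KO in iWAT. Its groups were apart in both depots, in iWAT only just (-0.97 ± 0.28 (SE)).

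Whether the genotype difference itself differed between depots was tested with an interaction term. No gene passed (0 of 15455, 0%), and 739 (4.78%) had an unadjusted p under 0.05. Without eWAT WT replicate 2 again 0 passed, and 1247 (7.9%) had an unadjusted p under 0.05. Without eWAT KO replicate 2 the genes Ptgs2, Slco2a1 and Des passed, and DESeq2 called 30. Thbs1, a matricellular protein, was at 41.3, 34.3 and 29.1 CPM in WT and 123, 1244 and 115 CPM in KO in eWAT and 42.04, 26.9 and 24.96 CPM in WT and 23.2, 32.3 and 31.95 CPM in KO in iWAT. The difference between depots of -3.92 ± 1.12 (SE) had an unadjusted p of 0.00566, and eWAT KO replicate 2 was by far the highest library. A p that misses the threshold does not show that the depots responded alike.

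In some marker lists a sign shared by the depots came from few libraries. All 8 spermatid markers stood higher in KO in both depots, with a median log2 fold change of 3.83. Their sum was 1108 CPM in eWAT KO replicate 1 and 45.8 CPM in iWAT KO replicate 1, against 0.3 and 9.3 CPM in the other eWAT KO libraries and at most 0.5 CPM in the other 5 iWAT libraries. In the library labelled eWAT WT replicate 2 the sum was 179 CPM. All 7 erythroid markers stood lower in both depots, with a median of -0.55, and all 10 B cell markers stood higher over both, 8 of them in each depot, with a median of 0.44. The B cell median was 0.13 without iWAT WT replicate 2, where 7 stood higher, and 0.97 without iWAT WT replicate 1.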

How the data were processed

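RNA of the 12 fat libraries was analysed, and the 6 liver libraries only in an alternative and in the closing section. Tools listed in the submitters' processing notes, with no roles, are RSEM, edgeR, DESeq2, StringTie 1.3.1, HISAT2, Bowtie2 2.2.8 and fastp 0.18.0, on build mm10. The authors deposited expected counts per gene, of which 9.19% were not whole (tolerance 0.01), and they were rounded. The authors also deposited FPKM values (counts scaled by gene length and depth), used for alternatives only. The sources used here do not say whether counting used the strand. Of 22298 identifiers 22255 matched a GENCODE M21 symbol on the same build, from which coordinates were taken.

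Genes were filtered with edgeR's filterByExpr (minimum count 10, minimum total 15), scaled with TMM and tested with edgeR 4.0.16 (glmQLFit, robust, glmQLFTest) in R 4.3.3, with depot and genotype as terms, Benjamini-Hochberg adjustment and a threshold of 0.05. The SE is the size of the log2 fold change over the square root of F. The script was tested on simulated data. Alternatives were DESeq2 1.42.0, limma 3.58.1 (voom, quality weights, log2(FPKM + 1) or + 0.1, with a minimum mean FPKM of 1 or none), other scalings, no filter, replicate blocks, all 18 libraries, and libraries left out. Overlap counts and list medians under each setting were added after seeing the data. Members and lists were chosen with earlier results of these data known. Named genes are Bckdha, the 6 of lowest p in each direction with 12 and with 11 libraries (same sign in each depot, mean log2 CPM of at least 1), and up to 4 members per list; others are said to be chosen after their values were seen. Some genes that this rule names are not reported here.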

Additional observations from a re-analysis of the deposited data

Results flagged for a closer look

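Apart from the alternative with all 18 libraries, the liver libraries entered no comparison of the fat depots. In liver KO and WT did not overlap for the following genes named above. Bcl6 was at 3.05 ± 1.31 CPM in WT liver and 30.6 ± 6.36 CPM in KO liver (SD, n = 3), a log2 ratio of means of 3.33, in the direction seen in fat. Cish was at 23.5 ± 3.71 and 3.82 ± 0.983 CPM (-2.62), again in the direction seen in fat. Dnajb1 (0.51), Arl15 (-0.74) and Aspg (-0.31) also had the direction seen in fat. Fam20c had the opposite one, at 77.1 ± 5.15 CPM in WT liver and 66.6 ± 4.32 CPM in KO liver (-0.21). These ratios were not tested here. Among the other genes examined in liver, Mafk, Peg3, Slc25a25, Spire1, Lurap1, Elovl6, Cyp26b1, Lactb2, Ddit4, Trafd1, Serpina3b and Bckdha overlapped between KO and WT. The share of all genes apart in liver is not given here, so the genes that were apart cannot be weighed against it.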

How the results depend on the processing

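The count of genes called over both depots was 0 with edgeR. It was 109 with DESeq2 (109 with the same sign in each depot), 1532 with limma-voom and sample quality weights (1525), 11 with log2(FPKM + 1) and 11 with log2(FPKM + 0.1) above a minimum mean FPKM of 1, and 2 (Fam20c and Peg3) with all 18 libraries. It stayed at 0 with the other scalings, without a filter, without robust estimation, with limma-voom, with unfiltered FPKM, and without the 3 eWAT libraries rich in epididymal transcripts. Leaving out each library in turn gave 0 to 1. The counts with the same sign in each depot mostly follow from testing a shared effect. The 19 genes of lowest p in either fit kept their sign in 551 of 551 pairs of gene and alternative and were called in 52, of which 19 came from quality weights and 16 from DESeq2. Bckdha reversed, to 0.0711 with log2(FPKM + 1) with and without the minimum and to 0.0744 with log2(FPKM + 0.1). The medians of all genes in these settings were higher, at 0.21, 0.14 and 0.26. Calls of the difference between depots numbered 30 with DESeq2, 0 to 3 with a library left out, and 1 (Arg1) without the 3 eWAT libraries. The cause of these changes was not tested. The count of genes apart in both depots ran from 220 to 622 with a library left out, against 197 with all 12. The 622 came without iWAT KO replicate 1. Fewer libraries make separation easier in every one of these fits.

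With the replicate number as a block 0 genes were called, and 0 with the genotype-and-number label as a random block (limma-voom, consensus correlation -0.0629). Same-numbered eWAT and iWAT libraries had correlations of their deviations from the group means of -0.212 to -0.0155 in WT and 0.0564 to 0.237 in KO. Libraries of different number gave -0.242 to 0.24 in WT and -0.231 to 0.183 in KO. Deviations from the mean of so few libraries are tied to each other, so these values cannot decide whether animals were shared. The numbers were not taken as pairs, and shared animals remain possible.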

Other observations

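Some genes with few or no reads in WT fat were present in every KO fat library; they were chosen after their values were seen. Slc5a7, the choline transporter of cholinergic neurons, had 0 reads in all 6 WT fat libraries and in all 6 liver libraries. In KO it had 39, 19 and 11 reads in eWAT and 16, 6 and 6 in iWAT, 97 in all, at least 33.2-fold higher than a floor of 3 reads over the WT group. Prr32 had 250 reads in KO and 20 in WT fat, and Gabrr2, a subunit of a GABA receptor, 160 and 21. For Gabrr2 the reads per KO library ran from 19 to 45 and per WT library from 1 to 8. These counts cover counting error only, and the 3 genes had an edgeR adjusted p of 0.218 each.

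Mest, like Peg3 an imprinted gene expressed from the paternal copy and also chosen after its values were seen, was at 29.6, 2.61 and 4.56 CPM in WT and 261, 157 and 98.03 CPM in KO in eWAT and 2.83, 4.61 and 3.59 CPM in WT and 151, 23.97 and 14.7 CPM in KO in iWAT. The groups were apart within each depot, and KO replicate 1 was the highest library in both (log2 fold change 3.95 ± 0.75 (SE), edgeR adjusted p = 0.218; chr6:30723547-30748465). Fam20c and Mafk, the genes of lowest p, lie on the same chromosome at chr5:138754514-138810077 and chr5:139791513-139802653.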
